A study of Mus musculus with 12 samples.

Results

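The collagen genes of the dorsal epidermal scrapings were taken as every row of the deposited count table whose symbol begins with Col, a number, the letter a and a number. The pattern matched 38 of 14533 genes. One of them, Col4a3bp, encodes a ceramide transfer protein and not a collagen (difference on the log2 scale -0.13, adjusted p = 0.503), which left 37 collagen genes. Of the 44 mouse collagen genes that were sorted into classes, 7 had no row in the table, which is labelled as filtered. These were Col2a1, Col6a4, Col9a2, Col22a1, Col10a1, Col25a1 and Col26a1, which were not analysed here.

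Scrapings from non-lesional dorsal skin of 12 mice were sequenced, with 1 library per mouse, and compared between 6 WT and 6 Pparg-/-epi mice. All were C57BL/6 mice homozygous for a floxed Pparg allele. The Pparg-/-epi mice also carried Cre recombinase under the keratin 14 promoter, which is active in basal keratinocytes of the epidermis and hair follicle, and the WT siblings carried no Cre. The WT mice were 3 females and 3 males, the Pparg-/-epi mice 4 females and 2 males, and by the labels all were 8 to 13 weeks old. Total counts ranged from 10120840 to 18851255 per library. The scraping went through the epidermis into the superficial dermis, so a library holds RNA of keratinocytes and of dermal cells, and in such bulk tissue fewer cells of a type and less RNA per cell cannot be told apart. Counts on Pparg, summed over the whole gene although only part of it is floxed, numbered 5 to 269 in the WT libraries, 16 to 107 in those of Pparg-/-epi mice, and did not separate the genotypes. Some WT libraries stood apart in the markers of other cells. Summed skeletal muscle markers reached 10091 CPM in WT replicate 5 and at most 399 CPM elsewhere, where CPM are TMM-scaled counts relative to library size. WT replicate 2 had the lowest suprabasal keratinocyte marker sum of the WT mice (15474 CPM) and the highest fibroblast, endothelial and adipocyte sums.

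Collagens are proteins of the extracellular matrix in which chains wind into a triple helix. Fibrillar collagens, led by types I and III, form the ropes of the dermis and are made mostly by fibroblasts. Type IV collagen forms the sheet of the basement membrane, and its chains assemble as different trimers: the chains of Col4a1 and Col4a2 occur in nearly all basement membranes, vessels included, and those of Col4a5 and Col4a6 in the basement membrane under the epidermis. Keratinocytes make type XVII collagen, a transmembrane protein of the hemidesmosome, and type VII collagen, the anchoring fibril that ties the basement membrane to the dermis.

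The 6 type IV genes lie as head-to-head pairs, in which the genes of a pair are read away from each other. In the deposited mm10 coordinates, 2 bases separated the start of Col4a1 from that of Col4a2 on chromosome 8, 71 bases separated Col4a4 from Col4a3 on chromosome 1, and 1342 bases separated Col4a6 from Col4a5 on the X chromosome. The sequences upstream of the genes that fell the most, and of both members of the X-linked pair, are shown from RefSeq (GRCm38.p6), 5′ to 3′ on the strand of the gene and cut back to bases outside every annotated exon. Capitals mark matches on either strand to 4 motifs. These were a GC box spelled GGGCGG and a box spelled CCAAT. The others were a nuclear receptor half-site spelled AGGTCA and a TATA box spelled TATAAA. Col20a1 is not shown because its window lies inside an annotated exon. The Col4a4 sequence is the whole interval between its start and that of Col4a3.
Col4a6, chrX:141474077-141474326, minus strand: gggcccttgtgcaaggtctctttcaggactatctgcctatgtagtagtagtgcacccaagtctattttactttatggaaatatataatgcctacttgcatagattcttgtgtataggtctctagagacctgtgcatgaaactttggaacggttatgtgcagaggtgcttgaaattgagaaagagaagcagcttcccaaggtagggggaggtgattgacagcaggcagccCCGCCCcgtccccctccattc
Col4a5, chrX:141475169-141475384, plus strand: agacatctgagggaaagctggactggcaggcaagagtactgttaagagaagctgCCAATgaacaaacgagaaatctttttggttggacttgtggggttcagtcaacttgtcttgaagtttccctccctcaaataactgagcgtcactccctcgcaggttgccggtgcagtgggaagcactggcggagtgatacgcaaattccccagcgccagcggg
Col4a4, chr1:82586850-82586920, minus strand: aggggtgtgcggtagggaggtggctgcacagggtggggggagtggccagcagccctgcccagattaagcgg
Col27a1, chr4:63215162-63215411, plus strand: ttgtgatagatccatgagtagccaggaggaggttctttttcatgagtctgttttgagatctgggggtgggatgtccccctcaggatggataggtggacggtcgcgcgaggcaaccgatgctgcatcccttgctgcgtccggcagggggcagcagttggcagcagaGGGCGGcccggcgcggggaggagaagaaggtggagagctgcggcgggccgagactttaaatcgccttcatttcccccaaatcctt
None of these 4 windows held the half-site, but that of Col4a4 has only 71 bases and that of Col4a5 216. The half-site occurred in 14.0% of the 250-base windows upstream of 32851 RefSeq genes, so its absence from 4 windows is unremarkable. A GC box occurred in 32.7% of all windows, a CCAAT box in 33.8% and a TATA box in 12.4%. Of the 37 collagen genes, 31 had an entry, and among these 18 windows held a GC box, 10 a CCAAT box, 8 the half-site and 4 a TATA box. These matches are descriptions of sequence and were not tested.

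In what follows levels are in CPM, and log2FC is the fitted log2 fold change of Pparg-/-epi over WT, given with its SE (standard error). To be called, a gene needed a log2FC of 0.6 or more in either direction together with an adjusted p below 0.05 in the quasi-likelihood test of edgeR, with Benjamini-Hochberg adjustment over all 14533 genes. Of the 37 collagen genes, 5 were lower in Pparg-/-epi mice, against 5.08% of all genes, and none was higher, against 5.19% of all genes. The genes that fell were Col27a1, Col4a6, Col4a5, Col4a4 and Col20a1. At an unadjusted p under 0.05, 5 collagen genes were higher, against 14.0% of all genes, and 7 were lower, against 15.4% of all genes. The likelihood ratio test called 1 collagen gene higher (6.07% of all genes) and 6 lower (5.71% of all genes), and DESeq2 called 2 higher (6.48%) and 6 lower (5.81%). The groups did not overlap for 5 collagen genes, the same genes that fell, against 7.9% of all genes. The median log2FC was 0.05 over the collagen genes and -0.01 over all genes. In females alone, 3 against 4 mice, Col27a1 (-0.91) and Col4a6 (-0.83) were called lower, against 2.46% of all genes, and Col4a4 had a log2FC of -1.96 (adjusted p = 0.0765). In males alone, 3 against 2 mice, no collagen was called, against 0.0482% of all genes lower, and the log2FC was -1.94 for Col4a4, -1.23 for Col27a1, -0.66 for Col4a6 and -0.67 for Col4a5. Of the WT mice, 4 shared a breeding number, and with only the other 2 kept Col4a4 (-2.24), Col27a1 (-0.75) and Col4a5 (-0.76) were called lower, against 1.53% of all genes, while Col4a6 had a log2FC of -0.87 (adjusted p = 0.0537).

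**Figure D1:**
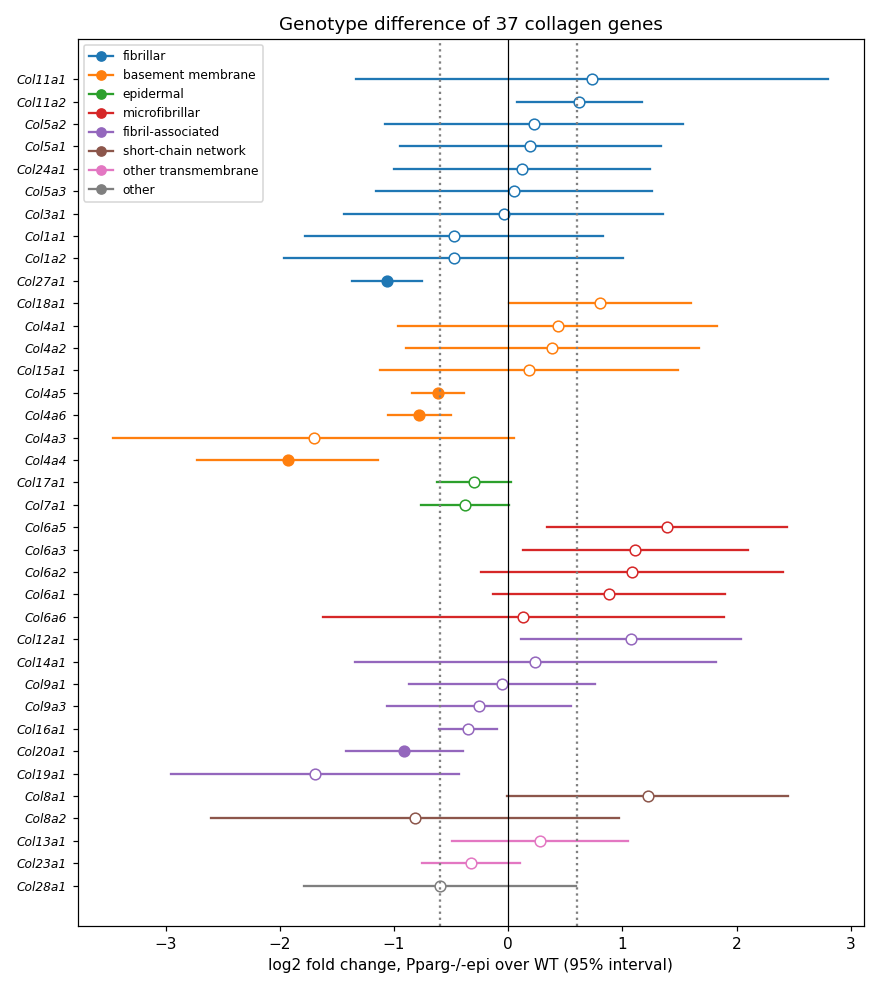
Log2FC of each of 37 collagen genes (Pparg-/-epi over WT, points) with its 95% interval (lines), coloured by class, with dotted lines at the threshold of 0.6 in each direction. The 5 filled points passed the test and lie left of 0, with Col4a4 at -1.93 and Col4a5 at -0.61, and the intervals of most fibrillar genes span 0 widely.

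The abundant fibrillar collagens were not called in either direction and varied widely among WT mice. The ratio of the fibrillar sum to the epidermal sum was 0.31 in WT replicate 6 and 11.5 in WT replicate 1, and 1.92 to 6.69 in Pparg-/-epi mice. Per kilobase of exon, the WT means were 968 CPM for Col1a1, 518 for Col1a2 and 488 for Col3a1, against 420 for Col17a1, the most abundant epidermal collagen. Type I collagen is built from the products of Col1a1 and Col1a2. Col1a1 was 423 CPM in the lowest WT mouse, 3486 at the median and 13798 in the highest, and 1983, 3485 and 4673 CPM in the Pparg-/-epi mice. The log2FC of Col1a1 was -0.48 (SE 0.60, 95% interval -1.78 to 0.83, adjusted p = 0.658). All 6 Pparg-/-epi mice fell inside the WT range. Col1a2 ranged from 167 through a median of 1568 to 9554 CPM in the WT group and from 1061 through 1878 to 2597 CPM in the Pparg-/-epi group, a log2FC of -0.48 (SE 0.69, adjusted p = 0.699). Col3a1, whose product forms type III fibrils, ranged from 270 through 1379 to 9686 CPM in the WT group and from 1615 through 2377 to 3914 CPM in the Pparg-/-epi group, a log2FC of -0.04 (SE 0.65, adjusted p = 0.980). WT replicate 1 was the highest and WT replicate 6 the lowest WT mouse for each of these 3 genes. Without WT replicate 1 the log2FC values turned to 0.27 for Col1a1, 0.56 for Col1a2 and 0.99 for Col3a1, and none passed the test.

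The sum over the 10 fibrillar genes varied 36.2-fold among WT mice, from 934 to 33788 CPM, and 2.11-fold among Pparg-/-epi mice, from 4887 to 10313 CPM. The mean of the sums was 10212 CPM in the WT group and 8136 CPM in the Pparg-/-epi group, while the difference of their mean log2 values was 0.40 in favour of the Pparg-/-epi mice. The latter was -0.13 without WT replicate 6 and 0.90 without WT replicate 1. Among all genes the median ratio of the highest to the lowest mouse was 1.79 in WT and 1.62 in Pparg-/-epi mice, and over the collagen genes it was 5.80 and 2.82. The log2 SD was larger in WT for 30 of 37 collagen genes (81.1%), against 68.9% of all genes. The markers of dermal cells also varied among WT mice. The summed level of 15 fibroblast markers was lowest in WT replicate 6 (1843 CPM), which had the lowest fibrillar sum. It was highest in WT replicate 2 (4997 CPM), followed by WT replicate 1 (3818 CPM), which had the highest fibrillar sum. Gsn, which encodes the actin-binding protein gelsolin, took 32.8 to 83.4% of this sum in the WT group and 30.6 to 55.7% in the Pparg-/-epi group. Without Gsn the sum ran from 306 through a median of 842 to 3360 CPM in the WT group. In the Pparg-/-epi group it then ran from 999 through 1533 to 2498 CPM. Gsn was lower in every Pparg-/-epi mouse than in any WT mouse, with a log2FC of -0.37 that fell short of the threshold (adjusted p = 0.0238). The part of dermis content in the fibrillar levels was not tested.

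**Figure D2:**
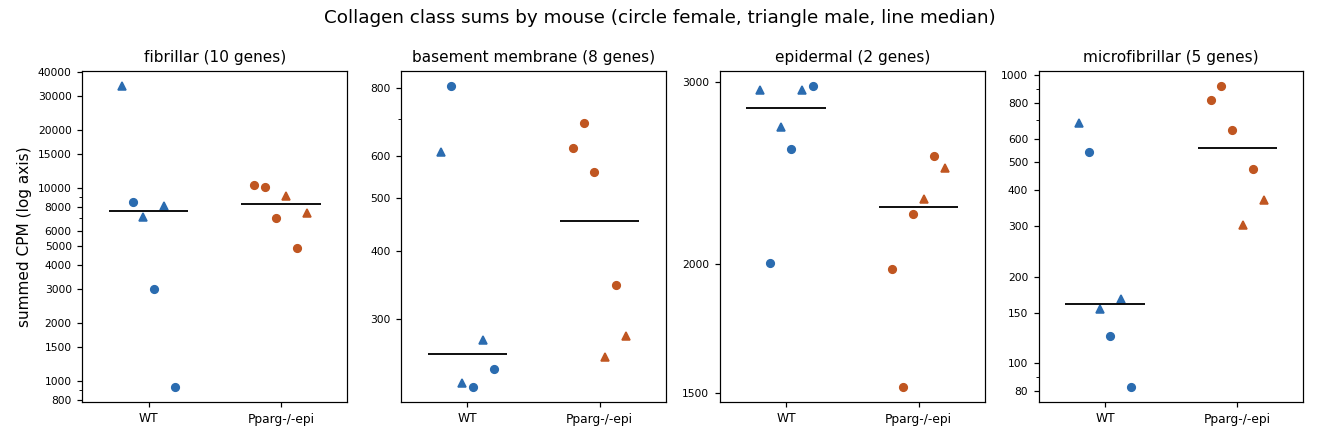
Summed CPM (log axis) of the fibrillar, basement membrane, epidermal and microfibrillar collagen genes in each mouse, with WT left and Pparg-/-epi right in each panel, circles for females, triangles for males and lines at the medians. The fibrillar sums of WT mice run from 934 to 33788 CPM, and the epidermal sums of all mice lie between 1520 and 2973 CPM.

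Col27a1, of far lower level, varied little within either group and fell. Col27a1 (chromosome 4, 63215412 to 63334990, plus strand) encodes a fibrillar collagen best known from cartilage. It was 21.4 CPM in the lowest WT mouse, 25.6 at the median and 33.4 in the highest, and 10.8, 12.7 and 14.7 CPM in the Pparg-/-epi mice. Every Pparg-/-epi mouse was below every WT mouse. The log2FC was -1.06 (SE 0.14, adjusted p = 0.00059), which is 47.9% of the WT level. The type V genes Col5a1, Col5a2 and Col5a3, whose products nucleate type I fibrils, had log2FC values of 0.20, 0.22 and 0.05. Col24a1, Col11a1 and Col11a2 were all below 15 CPM in every mouse, and none of the 6 passed the test.

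Of the 8 basement membrane genes, Col4a4, Col4a5 and Col4a6 fell and the genes of the ubiquitous chains, Col4a1 and Col4a2, were not called. Whether these changes differ from each other was not tested. Col4a6 (X chromosome, 141165403 to 141474076, minus strand) was 63.3 CPM in the lowest WT mouse, 67.9 at the median and 89.9 in the highest, and 30.6, 41.5 and 52.4 CPM in Pparg-/-epi mice. Its log2FC was -0.78 (SE 0.13, adjusted p = 0.0018). Col4a5 (X chromosome, 141475419 to 141689235, plus strand) ranged from 39.4 through 47.5 to 63.5 CPM in WT and from 28.3 through 32.4 to 33.8 CPM in Pparg-/-epi mice. Its log2FC was -0.61 (SE 0.11, adjusted p = 0.0026), just past the threshold of 0.6, and was -0.54 without WT replicate 1 and -0.599 without Pparg-/-epi replicate 9, when it no longer counted as called. For both X-linked genes, every Pparg-/-epi mouse was below every WT mouse, in females and males.

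Col4a4 (chromosome 1, 82450723 to 82586849, minus strand), whose product joins those of Col4a3 and Col4a5 in the trimer known from kidney, was far lower in level. It ranged from 1.45 through 2.26 to 5.10 CPM in WT (21 to 96 counts) and from 0.36 through 0.73 to 1.14 CPM in Pparg-/-epi mice (4 to 22 counts). The groups did not overlap, and the log2FC was -1.93 (SE 0.37, adjusted p = 0.0044). Its neighbour Col4a3 had a similar log2FC of -1.70 with a wider error (SE 0.81, adjusted p = 0.185), with 0 to 82 counts in the WT group and 1 to 19 in the Pparg-/-epi group. The exons of Col4a3 share 274 bases with a non-coding transcript on the opposite strand.

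Col4a1 was 25.8 CPM in the lowest WT mouse, 34.4 at the median and 242 in the highest, and 32.4, 102 and 203 CPM in Pparg-/-epi mice (log2FC 0.44, SE 0.65, adjusted p = 0.708). Col4a2 ranged from 22.7 through 33.6 to 175 CPM in WT and from 22.1 through 83.7 to 146 CPM in Pparg-/-epi mice (log2FC 0.39, SE 0.59, adjusted p = 0.719). WT replicate 2 was the highest WT mouse for both genes, and with only the 2 WT mice kept that did not come from the breeding number of the other 4, the log2FC values turned to -0.72 and -0.67. Without WT replicate 2 they were 1.18 for Col4a1 and 1.02 for Col4a2, and neither passed the test (adjusted p = 0.147 and 0.180). Per kilobase, Col4a5 and Col4a6 together were 0.26 to 2.43 times the level of Col4a1 and Col4a2 together in WT mice, with a median of 1.75. In Pparg-/-epi mice this ratio was 0.18 to 1.37, with a median of 0.46, and the groups overlapped. Within the pairs the ratio was steadier: Col4a2 was 0.70 to 1.06 times Col4a1 per kilobase over all 12 mice, and Col4a6 was 0.93 to 1.67 times Col4a5.

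Col18a1, which encodes a heparan sulfate-bearing collagen of basement membranes and the source of endostatin, ranged from 33.8 through 54.1 to 162 CPM in WT and from 88.4 through 130 to 169 CPM in Pparg-/-epi mice. The log2FC was 0.81 (SE 0.37, adjusted p = 0.163). Without WT replicate 2, the highest WT mouse, it was 1.19 (adjusted p = 0.012). Col15a1, a related basement membrane collagen, had a log2FC of 0.18 (adjusted p = 0.875).

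**Figure D3:**
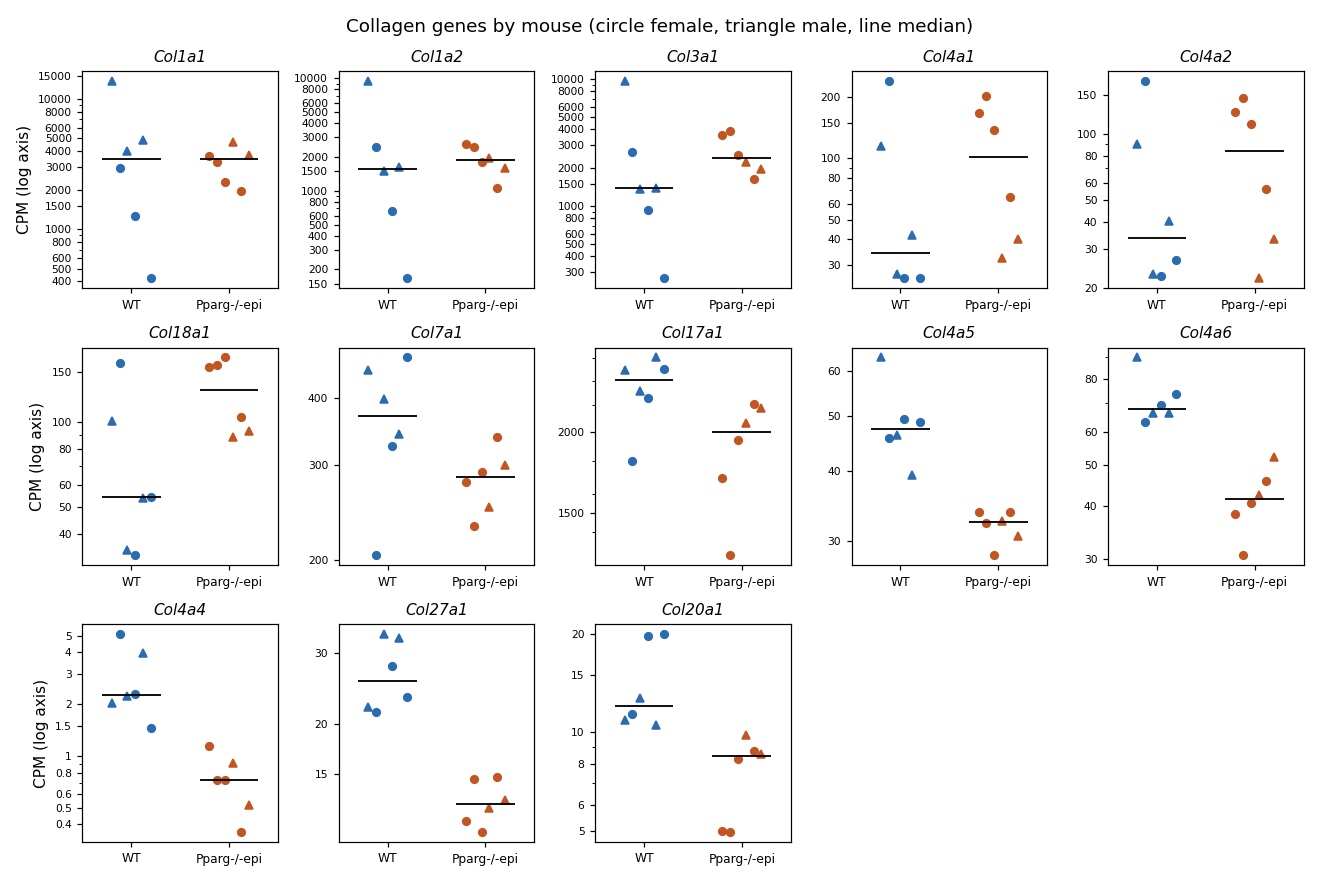
CPM (log axis) of 13 collagen genes in each mouse, with WT left and Pparg-/-epi right in each panel, circles for females, triangles for males and lines at the medians. Col4a5, Col4a6, Col4a4, Col27a1 and Col20a1 have no Pparg-/-epi mouse as high as the lowest WT mouse, while the Pparg-/-epi mice lie inside the WT range for Col1a1.

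The epidermal collagens were not called. The highest WT mouse was 2.33 times the lowest for Col7a1 and 1.45 times for Col17a1. Col17a1 ranged from 1800 through 2403 to 2605 CPM in the WT group and from 1289 through 2000 to 2205 CPM in the Pparg-/-epi group, a log2FC of -0.30 (SE 0.15, 95% interval -0.62 to 0.03, adjusted p = 0.213). Col7a1 ranged from 204 through 371 to 476 CPM in the WT group and from 231 through 286 to 339 CPM in the Pparg-/-epi group, a log2FC of -0.38 (SE 0.18, 95% interval -0.76 to 0.01, adjusted p = 0.178). The groups overlapped for both genes, and WT replicate 2 was the lowest WT mouse for both. Without WT replicate 2 the log2FC of Col7a1 was -0.52 (adjusted p = 0.013), short of the threshold of 0.6. That of Col17a1 was then -0.38 (adjusted p = 0.073). The sum of the pair was 2005 to 2973 CPM in the WT group and 1520 to 2543 CPM in the Pparg-/-epi group.

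Type VI collagen, which forms beaded microfibrils, had the highest class median, a log2FC of 1.09 over 5 genes, and none was called. Col6a1, Col6a2, Col6a3 and Col6a5 had log2FC values of 0.88, 1.09, 1.11 and 1.39, with adjusted p-values of 0.234, 0.263, 0.122 and 0.0727, and Col6a6 had a log2FC of 0.13 (adjusted p = 0.938). The likelihood ratio test called Col6a5 higher, and DESeq2 called Col6a3 and Col6a5. Without WT replicate 2 the quasi-likelihood test called 5 collagen genes higher, against 8.97% of all genes: Col6a3 (1.40), Col18a1 (1.19), Col8a1 (1.65), Col12a1 (1.47) and Col6a5 (1.60). WT replicate 2 was the highest WT mouse for Col18a1, Col8a1 and Col12a1.

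Of the fibril-associated collagens, Col20a1 (chromosome 2, 180986535 to 181017540, plus strand) ranged from 10.5 through 12.0 to 19.9 CPM in WT and from 4.97 through 8.44 to 9.81 CPM in Pparg-/-epi mice. The groups did not overlap, and the log2FC was -0.91 (SE 0.24, adjusted p = 0.022). The call was lost without WT replicate 4 (-0.79, adjusted p = 0.055) and without WT replicate 6 (-0.79, adjusted p = 0.053), the 2 highest WT mice. The log2FC of Col20a1 was -0.32 in males alone (adjusted p = 0.605) and -0.55 with the 2 WT mice of other breeding numbers (adjusted p = 0.343). Its exons share 79 bases with an overlapping transcript on the same strand. Col16a1 had a log2FC of -0.35 (adjusted p = 0.0651) and Col19a1 of -1.69 (adjusted p = 0.070), the latter at 36 counts or fewer in every mouse. Col19a1 was the sixth gene called lower by the likelihood ratio test (adjusted p = 0.0353) and by DESeq2 (adjusted p = 0.0499), and it was also called without WT replicate 1 and without Pparg-/-epi replicate 12. The 2 short-chain genes, the transmembrane Col13a1 and Col23a1, and Col28a1 did not pass the test.

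The 37 genes differed in how much they varied among WT mice. In 9 genes, a split chosen after the values were seen, the highest WT mouse was under 2.5 times the lowest: Col4a5, Col4a6, Col7a1, Col11a2, Col16a1, Col17a1, Col20a1, Col23a1 and Col27a1. Their median SE was 0.15, against 0.58 in the other 28, and 4 of the 5 genes that fell were among them. A gene with a SE of 0.6 would need a log2FC well above 1 to be called, so absence of a call for a dermal collagen does not show that its level was the same.

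To set collagen levels against the cells that make them, 6 ratios of a collagen to a summed marker list were compared with two-sided exact permutation tests over mice, adjusted over the 6. The smallest p such a test can give with 6 mice in each group is 0.00216. Col1a1 per fibroblast marker sum had a log2 difference of 0.20 (exact p = 0.771, adjusted p = 0.771), and Col3a1 per fibroblast marker sum of 0.73 (exact p = 0.240, adjusted p = 0.288). Without WT replicate 1 the difference for Col3a1 was 1.17 (exact p = 0.00216, adjusted p = 0.00325). In females alone both passed, at 1.11 for Col1a1 and 1.54 for Col3a1 (exact p = 0.0286, the smallest possible, and adjusted p = 0.0343 for each). Col4a1 per fibroblast marker sum had a log2 difference of 0.71 (exact p = 0.158, adjusted p = 0.237). The values of these 3 ratios moved with the make-up of the sum. With Gsn left out of the sum, an alternative added after the data were seen, the differences were -0.36 for Col1a1, 0.17 for Col3a1 and 0.16 for Col4a1, and none passed. With each marker scaled to its own mean they were -0.38, 0.15 and 0.14, and none passed. Both alternatives used the mice of both sexes and were not run in females alone. Whether the female differences hold with another make-up of the sum was therefore not tested.

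Col4a1 per endothelial marker sum was lower in Pparg-/-epi mice. The ratio ranged from 0.63 through 0.93 to 1.77 in WT and from 0.42 through 0.44 to 0.56 in Pparg-/-epi mice. The groups did not overlap, and the log2 difference was -1.03 (exact p = 0.00216, adjusted p = 0.00433). The endothelial sum itself ranged from 14.6 to 238 CPM in WT and from 76.9 to 360 CPM in Pparg-/-epi mice, and WT replicate 6 had both the lowest sum and the highest ratio. Endothelial cells are not the only known source of Col4a1. The part of endothelial content in this difference was not tested.

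Both epidermal collagens were lower per basal keratinocyte marker sum. For Col17a1 the ratio ranged from 0.17 through 0.22 to 0.25 in WT and from 0.12 through 0.13 to 0.16 in Pparg-/-epi mice, with no overlap, a log2 difference of -0.65 (exact p = 0.00216, adjusted p = 0.00433). For Col7a1 it ranged from 0.025 through 0.034 to 0.043 in WT and from 0.017 through 0.020 to 0.024 in Pparg-/-epi mice, a log2 difference of -0.67 (exact p = 0.00216, adjusted p = 0.00433). The sum itself ranged from 8216 through a median of 10764 to 14552 CPM in WT and from 11085 through 14367 to 15280 CPM in Pparg-/-epi mice. Of the 9 basal markers in the sum, Krt5 and Krt14 were the most abundant per length, and Krt14 rose by a log2FC of 0.98 (adjusted p = 0.0056). The ratios were not run without Krt14, and its part in these differences was not tested. With each marker scaled to its own mean, the Col7a1 difference was -0.39 and no longer passed (exact p = 0.0433, adjusted p = 0.0866), while the Col17a1 difference was -0.36 (exact p = 0.00866, adjusted p = 0.0260).

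**Figure D4:**
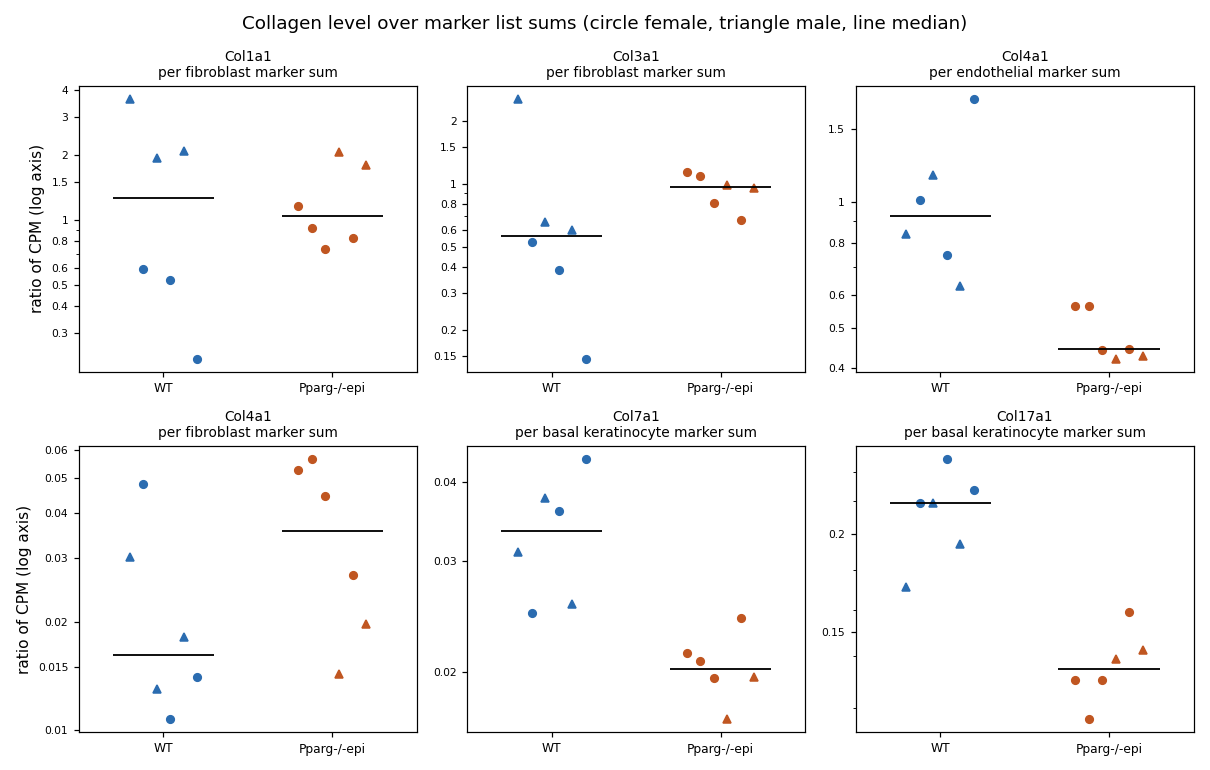
CPM of a collagen gene divided by the summed CPM of a marker list (log axis) in each mouse, with WT left and Pparg-/-epi right in each panel, circles for females, triangles for males and lines at the medians. The groups do not overlap for Col4a1 per endothelial, Col7a1 per basal keratinocyte and Col17a1 per basal keratinocyte marker sum.

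The genes that process, bind and degrade collagen were read from 4 lists. Of 29 genes of collagen maturation, 1 rose and 2 fell, with a median log2FC of 0.15, where 5.19% of all genes rose and 5.08% fell. The counts in the other 3 lists, 1 riser in each and 1 faller in the breakdown list, are read against the same shares. P4ha3, a prolyl hydroxylase subunit, rose from 0 to 0.384 CPM in WT to 0.582 to 2.85 CPM in Pparg-/-epi mice (log2FC 3.55, adjusted p = 0.0049), at 47 counts or fewer in every mouse. Adamts14, which removes the amino-terminal propeptide, fell (-1.12, adjusted p = 0.0045), as did P3h4, a scaffold of lysine hydroxylation (-0.80, adjusted p = 0.0080). The abundant P4hb and Ppib were not called. P4hb was higher in every Pparg-/-epi mouse than in any WT mouse, with a log2FC of 0.34 that fell short of the threshold (adjusted p = 0.021). Ppib had a log2FC of 0.15 (adjusted p = 0.427).

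Of 16 fibril assembly genes, only Postn, which encodes periostin, rose, from 24.5 to 409 CPM in WT to 432 to 1096 CPM in Pparg-/-epi mice without overlap (log2FC 2.00, adjusted p = 0.020). The abundant Sparc and Dcn had log2FC values of -0.09 and 0.01. Of 10 collagen receptors, Lair1, an inhibitory receptor of immune cells, rose (1.73, adjusted p = 0.017), and Ddr1 and Itgb1 had log2FC values of -0.14 and 0.08. Of 10 collagen breakdown genes, the inhibitor Timp1 rose (1.51, adjusted p = 0.033) and the gelatinase Mmp9 fell (adjusted p = 0.0039), while Timp2 and Mmp14 had log2FC values of -0.03 and 0.20.

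Markers of the cell types in the scrapings gave these counts, again beside 5.19% of all genes higher and 5.08% lower. None of 15 fibroblast, 10 mural, 8 adipocyte, 8 skeletal muscle or 9 hair matrix markers was called. By log2FC, the 2 most abundant per length of each list were Gsn (-0.37) and Dcn (0.01) for fibroblasts, Acta2 (0.12) and Notch3 (0.01) for mural cells, and Fabp4 (0.57) and Cfd (-0.42) for adipocytes. For skeletal muscle they were Tnnt3 (-3.69) and Acta1 (-3.81), and for hair matrix Krt71 (1.43) and Krt25 (1.60). Of 12 endothelial markers 1 rose, Emcn (1.79), the list median was 1.17, and the abundant Plvap (1.52) and Pecam1 (1.42) were not called. Of 7 Schwann cell markers Mbp (-0.63) and Ngfr (-1.21) fell, and Pmp22 had a log2FC of -0.18. Of 9 basal keratinocyte markers Krt14 rose, the list median was -0.15, and Krt5 had a log2FC of 0.14. Of 7 suprabasal markers Ivl rose, and Krt10 and Krtdap had log2FC values of -0.02 and -0.26. Of 7 follicle bulge markers Krt15 fell (-1.74), and Cd34 had a log2FC of -0.32. Of 7 dermal papilla markers Sostdc1 rose (1.32) and Rspo3 fell (-2.46).

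Sex was compared because the groups differed in it. No collagen gene had a genotype by sex interaction at an adjusted p under 0.05 (smallest 0.895), against 0 of 14533 genes (0.0%), and 4 collagen genes and 741 of all genes had an unadjusted p under 0.05. With genotype and sex in the fit, a comparison added after the data were seen, no collagen gene was called for sex, against 0.0138% of all genes. Col1a1 had the lowest unadjusted p, with 3706 to 13798 CPM in the 5 males and 423 to 3667 CPM in the 7 females (log2 difference 1.53, male over female, adjusted p = 0.279). Age was not in this fit. By the labels, WT replicate 1 and Pparg-/-epi replicates 10 and 12 were males of 8 to 10 weeks. WT replicate 2 was the only female under 12 weeks. With sex as a covariate all 5 genes that fell remained called. A single breeding number contained both genotypes, with 1 mouse of each, so no test within a breeding number could be made.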

How the data were processed

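The authors aligned the paired reads with STAR 2.5.2b to mm10 and counted reads per gene with featureCounts of Subread 1.5.1. The deposited values are these counts, labelled as filtered and without normalization. Shares of all genes are therefore shares of the genes kept in them. The 2800 blank rows were left out, and 14533 genes were tested. Counts were normalized by TMM and compared with edgeR 4.0.16 (quasi-likelihood test, genotype as the only term, R 4.3.3), with Benjamini-Hochberg adjustment over all genes. The likelihood ratio test that the study's methods name and DESeq2 1.42.0 were alternatives. Others were total-count scaling, a mean of at least 10 counts, covariates, subsets of mice and leaving out each mouse. Each test judged a difference against the spread between mice. The mice were treated as independent, although 4 WT mice shared a breeding number.

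Collagen classes and gene lists were compiled from general knowledge, and the members, lists and tests were chosen with earlier results of these data known. Dcn and Lum are in both the fibroblast and the fibril assembly list. Genes were named by rule: 8 chosen collagens, every called collagen, and from each list the 2 most abundant per length and up to 3 called. Other collagens are given by counts or fold changes. Sequences are from RefSeq, and exon overlaps from GENCODE. Whether strand was used in counting is not given in the sources used here. Figures were drawn with matplotlib 3.10.9.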

Additional observations from a re-analysis of the deposited data

Results flagged for a closer look

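Among 54 sets of 6 mice examined for a single mouse far from the others on the log2 scale, 2 stood out by Dixon's criterion, and chance alone gives about 1 in 20. The epidermal sum (Col7a1 and Col17a1) of WT replicate 2 was 2005 CPM, against 2582 CPM in the next lowest WT mouse, a gap of 0.642 of the whole range. The short-chain sum (Col8a1 and Col8a2) of WT replicate 3 was 0.107 CPM, against 2.62 CPM in the next lowest WT mouse, a gap of 0.638 of the range, and it rests on 1 count of Col8a1 and 0 of Col8a2.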

How the results depend on the processing

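No paired analysis was possible because the 1 breeding number found in both groups holds a single mouse of each. The count of collagen genes that rose was 0, and became 1 under the likelihood ratio test and 2 under DESeq2. Leaving out 1 mouse at a time gave 0 to 5, with 5 without WT replicate 2. The count that fell was 5, where 739 of all 14533 genes fell. It became 2 in females, where 357 of all genes fell, and 0 in males (3 against 2 mice, where 7 of all genes fell). It became 3 when WT was limited to the 2 mice that did not share a breeding number with the other 4. In that run 223 of all genes fell. Leaving out 1 mouse gave 4 to 6. Total-count scaling, the filter on a mean of at least 10 counts and the sex, RIN and age covariates gave 0 and 5. RIN, the RNA integrity number, ran from 5.7 to 8.6. With RIN as a covariate the log2FC moved from -0.38 to -0.22 for Col7a1, from -0.30 to -0.19 for Col17a1 and from 0.44 to 0.22 for Col4a1. It grew in size from -0.48 to -0.66 for Col1a1 and from -1.93 to -2.20 for Col4a4.

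Signs turned for collagens that were not called. With sex as a covariate the log2FC was 0.18 for Col1a1, 0.026 for Col1a2, 0.33 for Col3a1 and -0.017 for Col4a2. With age, for which the labels used here and the study's supplement disagree on some mice, most for WT replicate 2 and Pparg-/-epi replicate 10, it was 0.24 for Col1a2 and 0.69 for Col3a1. In females it was 0.87 for Col1a1, 0.87 for Col1a2 and 1.19 for Col3a1. In males it was -0.78 for Col4a1 and -0.91 for Col4a2. With those 2 WT mice it was -0.72 for Col4a1, -0.67 for Col4a2 and -0.020 for Col18a1. Leaving out 1 mouse gave -0.72 to 0.27 for Col1a1, -0.73 to 0.56 for Col1a2 and -0.28 to 0.99 for Col3a1, and 0.13 to 1.18 for Col4a1 and 0.13 to 1.02 for Col4a2. The cause was not tested.

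Col1a1 per fibroblast marker sum had a log2 difference of 1.11 in females, which passed, and of -0.23 to 0.57 with 1 mouse left out. It was -0.38 with scaled markers and -0.36 without Gsn, both over all mice and not run in females alone. Col3a1 per fibroblast marker sum was 1.54 in females, which passed, 0.15 with scaled markers and 0.34 to 1.17 with 1 mouse left out. Col4a1 per fibroblast marker sum was 0.14 with scaled markers. Col7a1 per basal keratinocyte marker sum was -0.39 with scaled markers. No interaction of genotype with sex was called for a collagen under the likelihood ratio test or with any 1 mouse left out. The class sums moved by less than 1 SD in each alternative run, although the fibrillar difference ran from -0.13 to 0.90 with 1 mouse left out. Genes with few counts, such as Col4a3, Col8a2 and Col19a1, limit what could be seen.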

Other observations

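Per kilobase, the ratio of Col1a1 to Col3a1 was 1.00 to 1.45 in the 4 female and 2.25 to 2.48 in the 2 male Pparg-/-epi mice. In WT mice it was 1.32 to 1.86 in the 3 females and 1.69 to 4.12 in the 3 males, which overlapped. By the labels the Pparg-/-epi males were 8 and 10 weeks old and the Pparg-/-epi females 12 or 13 weeks. Sex and age thus cannot be told apart in that group. This comparison was chosen after the values were seen and was not tested.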
